A study of Rattus norvegicus with 4 samples.

Results

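The 6 genes described here are the neuregulins Nrg1, Nrg2 and Nrg3 and the ErbB receptors Erbb3, Erbb4 and Egfr, taken by symbol from the 30560 genes of the deposited feature lists, where each symbol occurs once. They were measured by single-nucleus RNA-seq in the nucleus accumbens, a part of the ventral striatum that receives dopamine. Sprague-Dawley rats of both sexes, 90 to 120 days old, received 20 mg/kg cocaine or the same volume of physiological saline by intraperitoneal injection on 7 consecutive days, and tissue was taken 1 h after the last injection. A 2 mm punch centred on the accumbens core was used, nuclei were sorted by flow cytometry, and libraries were made with 10x Genomics 3′ chemistry. Each of the 4 libraries pools 4 rats, so there is 1 library for each combination of sex and treatment. The deposited matrices do not separate the rats of a pool, so the pool is the replicate in each test. In tests of cocaine against saline the spread assumed for a gene rests largely, and in some classes wholly, on the trend over all genes.

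Neuregulins are growth factors with an EGF-like domain that are made mostly as membrane-bound precursors and released by proteases. The products of Nrg1 and Nrg2 bind ErbB3 and ErbB4, and that of Nrg3 binds ErbB4. The EGF receptor, encoded by Egfr, binds other ligands such as EGF and TGF-alpha. The receptors act as dimers. ErbB2 has no known ligand of its own and ErbB3 has little kinase activity, so both depend on a partner receptor. In the brain ErbB4 is best known from inhibitory interneurons, and ErbB3 from the cells that make myelin.

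The libraries held 26228 nuclei, with between 31484217 and 40737786 unique molecular identifiers (UMIs, counted RNA molecules) each. Any 2 libraries shared 10 to 18 cell barcodes, at most 0.282% of the smaller one. Of the 24843 nuclei kept, 20088 (80.9%) passed the marker limits of exactly 1 class, and another 3691 had neuronal markers without a class. None of the 6 genes was used to assign nuclei. The names below stand for these limits: D1 and D2 nuclei carry markers of medium spiny neurons, the projection neurons of the striatum, with those of the D1 or D2 dopamine receptor type. Grm8 nuclei are a further spiny-like type, and Sst, Pthlh, cholinergic and other GABAergic nuclei are interneuron-like. D1 nuclei with at least 2 UMIs of Reln and none of Htr4 are called Reln D1 nuclei, and those with the reverse Htr4 D1 nuclei. A class is a range of marker counts, and between 6.80% (glutamatergic) and 45.4% (Sst) of its nuclei lay near a limit. Pvalb was not among the listed symbols, so the Pthlh class was gated on Pthlh and Kit alone. The 4 other listed markers of that type did not set it apart: Cntnap4 was at 592 CPM (UMIs of the gene per 1000000 UMIs of the class in a library) there and 725 CPM in Sst nuclei, and Eya4, Kcnip2 and Tac3 were also higher in other classes. Levels are given in CPM, always with the saline female library first, then the cocaine female, the saline male and the cocaine male one, unless another order is stated. Some values that rest on few UMIs are given with their number. In that order the libraries held 26, 35, 34 and 13 cholinergic and 27, 53, 45 and 38 Sst nuclei. They held 70, 60, 65 and 39 Pthlh and 42, 214, 42 and 99 glutamatergic nuclei. Committed precursor-like nuclei numbered 35, 31, 47 and 40, and vascular-like nuclei 23, 30, 34 and 28.

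Nrg1 was a gene of neurons in these data, and its level was highest in Reln D1 nuclei. There it reached 7737, 7382, 7499 and 6908 CPM (mean 7381 ± 348 SD, n = 4). In D2 nuclei it was 6456, 5777, 5740 and 5493 CPM, and in Htr4 D1 nuclei 5862, 5966, 5753 and 5768 CPM. Every Reln D1 library therefore lay above every D2 and every Htr4 D1 library, while the D2 and Htr4 D1 ranges overlapped. Sst nuclei (mean 3226 CPM), Grm8 nuclei (3048), Pthlh nuclei (3046), cholinergic nuclei (2438) and other GABAergic nuclei (1634) followed, each overlapping with the next. Glutamatergic nuclei closed the neuronal series at 979, 2190, 1705 and 1258 CPM.

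All glial and vascular classes lay below every neuronal library for Nrg1. Oligodendrocyte precursor-like nuclei had 111, 168, 135 and 133 CPM and astrocyte-like nuclei 85.5, 87.1, 98.1 and 142 CPM. Oligodendrocyte-like nuclei had a mean of 53.1 CPM, which is 0.838% of the D1 level. Other genes of neurons were also found at low levels in glia. Rgs9, a gene of spiny neurons, stood at 1.68% of its D1 level in oligodendrocyte-like, 1.58% in astrocyte-like, 2.22% in microglia-like and 0.838% in precursor-like nuclei. Gad1 and Gad2, the genes of GABA synthesis, together stood at 2.82, 1.48, 2.23 and 5.66% in these 4 classes. Nrg1 was at 1.63% of its D1 level in astrocyte-like, 1.23% in microglia-like and 2.16% in precursor-like nuclei. How much of the glial Nrg1 is free RNA was not tested. The committed precursor-like nuclei had 6.22, 296, 22.1 and 24.0 CPM from 47 UMIs in all, and 26 of the 39 UMIs of the cocaine female library came from 1 nucleus.

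Nrg2 was spread more evenly over neurons. It was highest in D2 nuclei, with 376, 342, 338 and 316 CPM (mean 343 ± 25.1 SD, n = 4), and Reln D1 nuclei (mean 324 CPM) overlapped with them. Grm8, other GABAergic, Sst, glutamatergic and Pthlh nuclei formed a middle range of means from 228 down to 182 CPM in which each class overlapped with the next. Oligodendrocyte precursor-like nuclei held 154, 129, 111 and 150 CPM, within the range of the cholinergic nuclei (mean 137 CPM). Oligodendrocyte-like nuclei had 10.6, 6.94, 4.62 and 7.60 CPM. The level of this gene thus separated precursors from oligodendrocytes without overlap.

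Nrg3 was highest in glutamatergic nuclei, with 7187, 6467, 6735 and 6518 CPM (mean 6727 ± 328 SD, n = 4). Other GABAergic nuclei (mean 4341 CPM) and cholinergic nuclei (mean 4229 CPM) came next and overlapped with each other, not with the glutamatergic nuclei. A group of 5 classes then overlapped in a chain from Htr4 D1 nuclei (mean 3000 CPM) to Reln D1 nuclei (mean 2597 CPM). One of these was glial: oligodendrocyte precursor-like nuclei held 2616, 2708, 2882 and 2670 CPM. D2 nuclei were lower, with 1860, 1841, 1642 and 1405 CPM. The level was lower again in committed precursor-like nuclei (522, 790, 713 and 608 CPM), and oligodendrocyte-like nuclei had 43.9, 72.8, 48.3 and 47.7 CPM, or 2.11% of the D1 level. Astrocyte-like nuclei had 962, 648, 777 and 1143 CPM, 35.0% of the D1 level, against 1.58% for Rgs9 and 1.48% for Gad1 and Gad2.

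Erbb4, the neuregulin receptor with its own kinase activity, was highest in Pthlh nuclei, at 13245, 12519, 15462 and 12863 CPM (mean 13522 ± 1327 SD, n = 4). Grm8 nuclei followed with 8666, 8393, 9010 and 7903 CPM. Next came oligodendrocyte-like nuclei with 3468, 3581, 3508 and 3247 CPM. These 3 ranks did not overlap. Committed precursor-like (mean 3311 CPM), other GABAergic (3099) and oligodendrocyte precursor-like nuclei (2968) followed, each overlapping with the class before it. The precursor-like libraries, at 3085, 2888, 3031 and 2867 CPM, all lay below the oligodendrocyte-like ones. The other GABAergic value is a mixture: in the cluster with 70.9 to 85.8% of that class Erbb4 was 1154 to 1636 CPM, and in the cluster named for Pthlh nuclei, with 11.3 to 26.9%, it was 8982 to 11103 CPM. Cholinergic (1845) and Sst nuclei (1444) were lower.

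Among spiny neurons Erbb4 differed by class. D1 nuclei as a whole had 682, 840, 715 and 781 CPM and D2 nuclei 51.1, 85.7, 64.5 and 77.4 CPM. Glutamatergic nuclei had 264, 247, 126 and 44.9 CPM (145, 589, 62 and 42 UMIs), a range that overlapped with that of D2 nuclei. The D2 level was 2.02% of that in oligodendrocyte-like nuclei. Microglia-like nuclei had 38.8, 45.4, 10.5 and 46.3 CPM from 42 UMIs, 1.02% of the oligodendrocyte level, and how much of these low levels is free RNA was not tested.

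Erbb3, the receptor that depends on a partner's kinase, was found in the oligodendrocyte lineage. Oligodendrocyte-like nuclei had 78.9, 88.2, 94.9 and 119 CPM (mean 95.2 ± 17.2 SD, n = 4, 1142 UMIs). Precursor-like nuclei had 64.6, 43.7, 35.7 and 59.8 CPM (130 UMIs), all below the oligodendrocyte libraries, and committed precursor-like nuclei 31.1, 53.2, 11.1 and 8.01 CPM from 15 UMIs. Of the 1295 Erbb3 UMIs in all classes, 8 lay outside this lineage. D1 nuclei had 0 UMIs, which with 3 counts as the limit allows up to 0.0905 CPM, and the Grm8, Pthlh, glutamatergic and vascular-like nuclei also had 0. D2, Sst, cholinergic and astrocyte-like nuclei had 1 UMI each, and other GABAergic and microglia-like nuclei 2 each.

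Egfr was concentrated in 3 classes. Pthlh nuclei had 1133, 1181, 1458 and 1113 CPM (mean 1221 ± 160 SD, n = 4), astrocyte-like nuclei 285, 272, 375 and 318 CPM, and other GABAergic nuclei 56.2, 119, 156 and 164 CPM. Their ranges did not overlap, and all other class means were at or below 22.3 CPM. Egfr UMIs were found in 34 of 282, 32 of 175, 24 of 138 and 22 of 114 other GABAergic nuclei. In the saline female library 40 of the 158 UMIs of that class came from 1 nucleus. How much of its Egfr lay in nuclei of the cluster named for Pthlh nuclei was not tested. D1 nuclei had 9.81, 8.09, 9.26 and 8.75 CPM and D2 nuclei 3.88, 4.69, 6.37 and 4.52 CPM. In the oligodendrocyte lineage Egfr was close to 0, with 4 UMIs in precursor-like, 1 in committed precursor-like and 7 in oligodendrocyte-like nuclei.

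**Figure D1:**
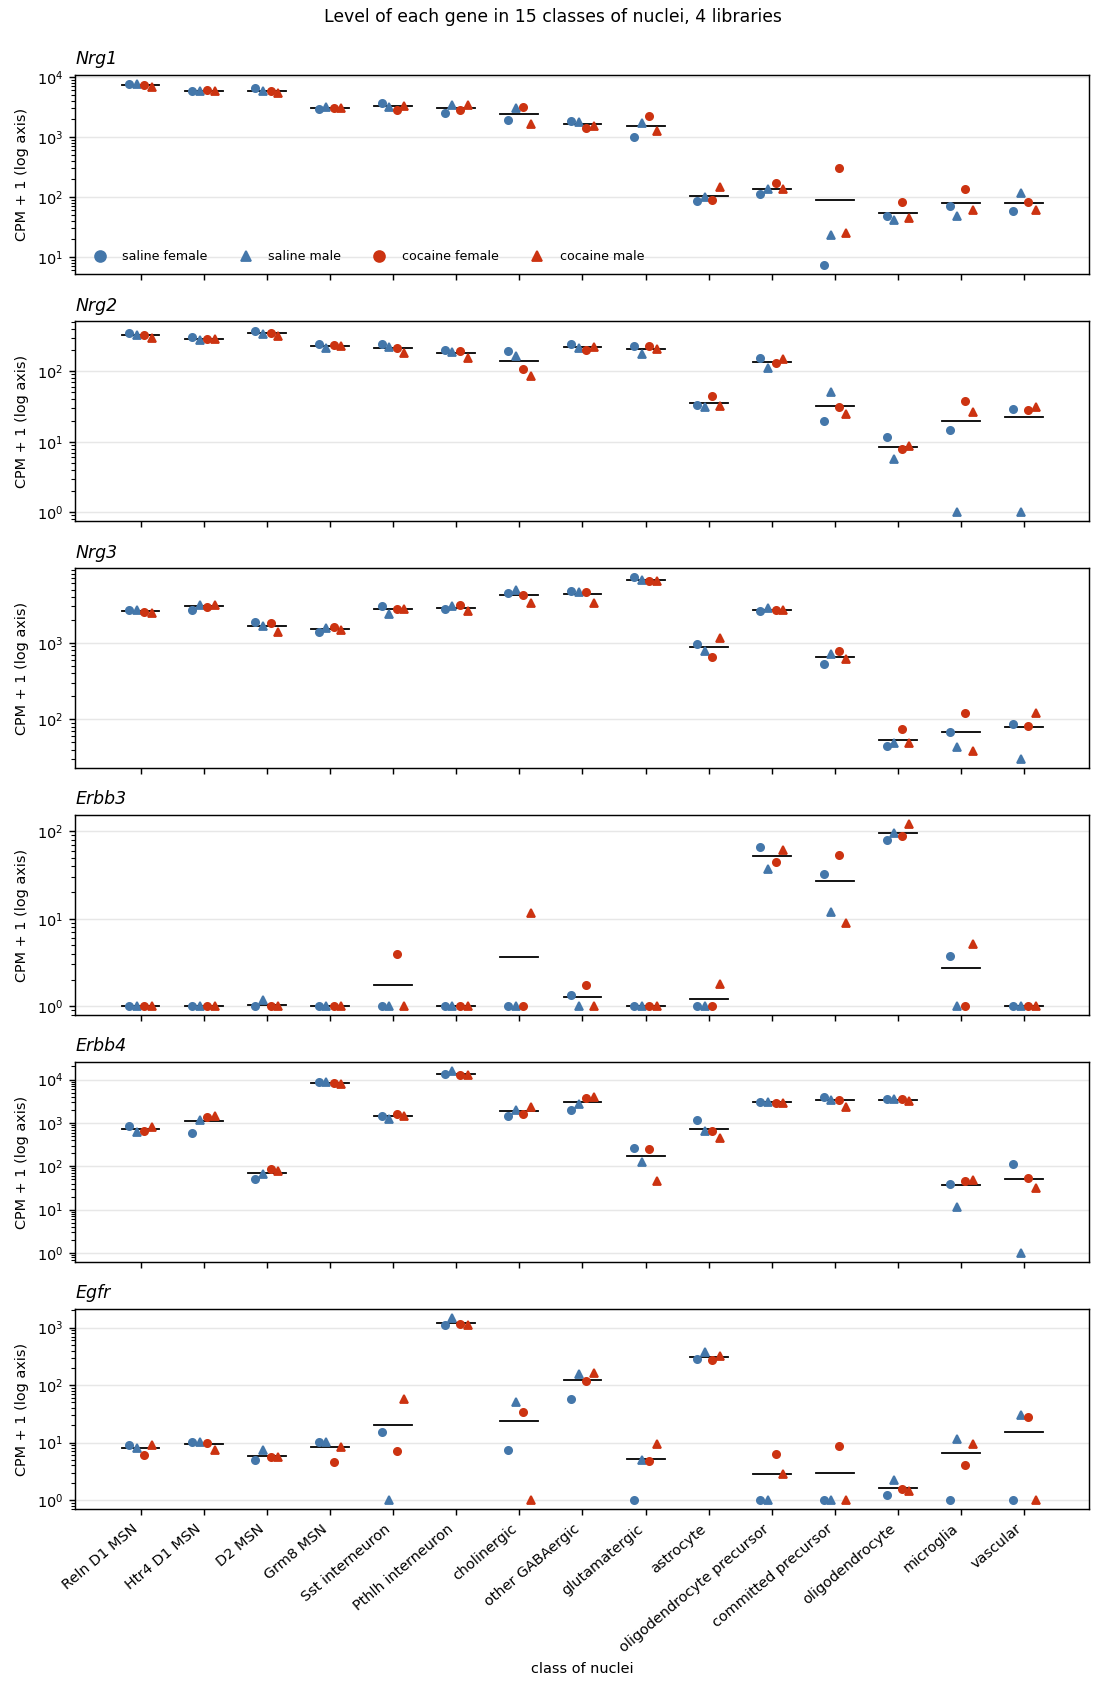
Level of each of the 6 genes (CPM plus 1, log axis) in 15 classes of nuclei, with 1 point per library (blue saline, red cocaine, circles female, triangles male) and a black line at the mean. Nrg1 drops from 979 CPM or more in neurons to means of 137 CPM or less in glia, Erbb3 is confined to the 3 oligodendrocyte-lineage classes apart from 8 UMIs, and Egfr peaks in Pthlh and astrocyte-like nuclei.

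Genes that the pathway list holds besides the 6 show which partners were present. Erbb2, the receptor without a ligand, had 37 UMIs in all classes together, 21 of them in astrocyte-like nuclei (mean 3.86 CPM), and 0 in oligodendrocyte-like, precursor-like and committed precursor-like nuclei. Tgfa, which encodes a ligand of the EGF receptor, reached 262, 269, 182 and 213 CPM in oligodendrocyte precursor-like nuclei and 70.5, 70.5, 69.3 and 62.5 CPM in oligodendrocyte-like nuclei. Egf was highest in astrocyte-like nuclei with 66.4, 81.6, 76.8 and 76.5 CPM. Both ligands were thus highest in glia, Tgfa in the lineage in which Egfr was close to 0. Btc, another such ligand, was found in D1 nuclei (10.9 to 15.3 CPM by library) and D2 nuclei (9.94 to 13.7 CPM), and Nrg4, a ligand of ErbB4, in microglia-like nuclei (34.5 CPM from 39 UMIs). Ereg had 0 UMIs in every class.

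Class was set against class in edgeR's quasi-likelihood test with the library as a block and Benjamini-Hochberg adjustment over all 12709 genes, with an adjusted p below 0.05 as the call. The question is where ligands and receptors differ between cell types of the same tissue. Of all genes, 7.71% were called between D1 and D2 nuclei, 4.52% as higher and 3.19% as lower in D1. Of the 6 genes, 3 were: Erbb4 was higher in D1 nuclei by 3.42 on the log2 scale (SE 0.25, edgeR adjusted p = 7.355e-17), a 10.8-fold ratio of the means, and higher in 4 of 4 libraries. Nrg3 was higher in D1 nuclei by 0.56 (SE 0.15, edgeR adjusted p = 0.007003) and Egfr by 0.85 (SE 0.25, edgeR adjusted p = 0.0209), each in 4 of 4 libraries. Nrg1 (log2 difference 0.09, SE 0.22, edgeR adjusted p = 0.93) and Nrg2 (-0.21, SE 0.072, edgeR adjusted p = 0.06446) did not pass. The Egfr call was lost in DESeq2 (adjusted p = 0.406), and the Nrg3 call with Leiden clusters as classes (edgeR adjusted p = 0.1468). Without the cocaine male library neither passed. Egfr was also lost without the cocaine female library, and Nrg3 without the saline male library.

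Pthlh and Sst nuclei had more Erbb4 and less Nrg1 and Nrg2 than D1 and D2 nuclei. The reference here and below, also where spiny neurons are named, is the mean of the log levels of D1 and D2 nuclei. Grm8 nuclei are not part of it. Their mean Erbb4, 8493 CPM, was above the 1444 CPM of Sst nuclei. Their mean Nrg1, 3048 CPM, was near the 3226 CPM of Sst and the 3046 CPM of Pthlh nuclei. In Pthlh nuclei, where 41.3% of all genes were called (20.4% higher and 20.9% lower), Erbb4 was higher by 5.72 on the log2 scale (SE 0.20) and Egfr by 7.38 (SE 0.13, edgeR adjusted p = 1.158e-44), both in 4 of 4 libraries. Nrg1 was lower by 1.18 and Nrg2 by 0.96 on that scale, in 4 of 4 libraries each, with edgeR adjusted p = 1.743e-06 and 2.862e-12. Nrg3 was higher by 0.32 (SE 0.13, edgeR adjusted p = 0.04117), a call that was lost whichever library was left out.

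In Sst nuclei (34% of all genes called, 16% higher and 18% lower) Erbb4 was higher by 2.37 (SE 0.20, edgeR adjusted p = 4.916e-15). Nrg1 was lower by 1.20 and Nrg2 by 0.87, with edgeR adjusted p = 1.941e-06 and 4.927e-09. Nrg3 (0.14, SE 0.13) and Egfr (1.00, SE 0.63, from 16 UMIs) did not pass. Sst nuclei also carried spiny neuron genes. The median of the spiny gate genes was 14.86 UMIs per 10000 there, above the lower limit set for spiny neurons. Rarb carried most of these UMIs, with a mean of 1357 CPM against 2478 CPM in D1 nuclei. Rgs9 had 78.0 against 601 CPM, Drd1 44.1 against 119 CPM and Tac1 75.2 against 224 CPM. The part of this RNA in the Sst levels and differences was not tested. Glutamatergic nuclei (43.7% called, 22.9% higher and 20.8% lower) were set apart by Nrg3, higher by 1.63 (SE 0.12, edgeR adjusted p = 6.27e-17), and by Nrg1, lower by 2.09 (SE 0.21, edgeR adjusted p = 1.472e-12). Nrg2 was lower there by 0.69. Erbb4 was lower by 0.54 (SE 0.22, edgeR adjusted p = 0.04686), where the glutamatergic mean of 170 CPM lies between the D2 and the D1 mean, and the call was lost in DESeq2 and with either male library left out, and without the cocaine male one the difference was -0.18.

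Along the oligodendrocyte lineage the ligands were lower and Erbb3 was higher in the mature class. Between oligodendrocyte-like and precursor-like nuclei 56.8% of all genes were called, 27.9% as higher and 28.9% as lower. Nrg3 was lower in oligodendrocytes by 5.61 on the log2 scale (SE 0.19), Nrg2 by 4.06 (SE 0.17) and Nrg1 by 1.28 (SE 0.28), with edgeR adjusted p = 6.16e-33, 5.939e-29 and 8.467e-05. Nrg1 stood at 2.16% of its D1 level in precursor-like and 0.838% in oligodendrocyte-like nuclei. Gad1 and Gad2 together stood at 5.66 and 2.82% in these 2 classes. How much of the Nrg1 difference is free RNA was not tested. Erbb3 was higher by 0.91 (SE 0.16, edgeR adjusted p = 2.422e-06) in 4 of 4 libraries. Erbb4 differed by 0.29 (SE 0.22, edgeR adjusted p = 0.2804) and did not pass (it did with no filter), although its level was higher in oligodendrocytes in 4 of 4 libraries.

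Astrocyte-like nuclei (72.1% of all genes called against spiny neurons, 36.8% higher and 35.3% lower) had more Egfr, by 5.34 (SE 0.14, edgeR adjusted p = 4.328e-39). All 3 neuregulins were lower: Nrg1 by 6.11, Nrg2 by 3.45 and Nrg3 by 1.43 (log2), each at an edgeR adjusted p of 1.079e-13 or smaller. Erbb4 was higher by 1.42 (SE 0.19, edgeR adjusted p = 2.604e-09) against the mean of the log levels. Its plain mean in astrocyte-like nuclei, 725 CPM, was close to the 754 CPM of D1 nuclei, and the library ranges of these 2 classes overlapped.

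**Figure D2:**
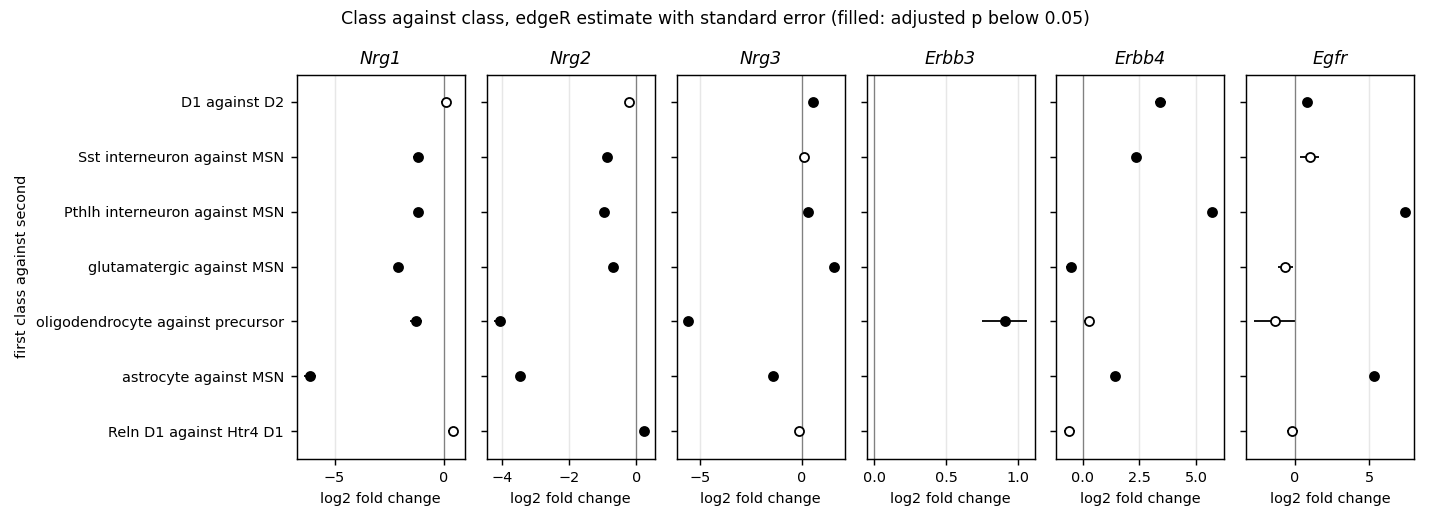
Log2 difference between classes (x axis) for each gene, with the edgeR estimate and its standard error as the bar; filled points have an adjusted p below 0.05. Erbb4 and Egfr lie far to the right in Pthlh nuclei (5.72 and 7.38), and the neuregulins lie to the left in oligodendrocytes against precursors; Erbb3 is drawn for that contrast alone because each class of the other contrasts held at most 1 UMI of it.

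Ligand and receptor were next looked for in the same nucleus. Each nucleus was thinned to 1000 UMIs, and shallower nuclei were left out (285 oligodendrocyte-like, 142 microglia-like, 44 vascular-like and 11 or fewer in each other class). Shares have exact 95% binomial intervals, which cover counting error only. Erbb4 had a UMI in 34.2% of D1 nuclei (32.7 to 35.7%) and in 4.56% of D2 nuclei (3.85 to 5.36%), and, thinned in the same way, in 3.31% of microglia-like nuclei (2.06 to 5.02%), an interval that overlaps with that of D2 nuclei. Grm8 (96.9%), Pthlh (94.9%), oligodendrocyte-like (92.9%) and precursor-like nuclei (92.4%) were nearly all positive. Nrg1 had a UMI in 95.5% of D1 and 95.4% of D2 nuclei.

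Because nearly every D1 and D2 nucleus held Nrg1, the joint share in these 2 classes followed the receptor. Nrg1 and Erbb4 occurred together in 33.1% of D1 nuclei (31.2 to 36.3% by library) and in 4.43% of D2 nuclei (3.58 to 5.00%). The product of the single shares, which would hold if the 2 genes were detected independently, was 32.7% and 4.35%. In Grm8 nuclei the pair occurred in 68.7% (product 68.1%) and in Pthlh nuclei in 62.0% (product 61.6%). Joint detection therefore lay close to the product in these 4 classes. Oligodendrocyte-like nuclei held both in 4.97% of nuclei (3.88 to 6.57% by library), where the Nrg1 level was low.

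Nrg3 and Erbb4 gave another order of classes. They occurred together in 85.9% of Pthlh nuclei (81.4 to 90.0% by library), 81.1% of oligodendrocyte precursor-like nuclei (75.6 to 86.4% by library), 56.7% of Grm8 nuclei, 29.5% of D1 nuclei and 4.23% of oligodendrocyte-like nuclei. Precursors and oligodendrocytes shared a high Erbb4 detection and differed in the ligand: Nrg3 had a UMI in 87.7% of the first and 4.50% of the second. In astrocyte-like nuclei the joint share was 18.4% against a product of 13.9%. By library it was 27.8, 16.1, 15.7 and 14.2%. For Nrg1 and Erbb4 in the same class the joint share was 0.978% against a product of 2.04%, from 17 nuclei.

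Pairs with Erbb3 were rare. Nrg1 and Erbb3 shared 0.436% of oligodendrocyte-like nuclei (27 of 6194) and 0.995% of precursor-like nuclei (8 of 804), and Nrg2 and Erbb3 0.113% and 0.622%. Erbb3 alone had a UMI in 9.12% of oligodendrocyte-like nuclei (8.42 to 9.87%) and in 5.85% of precursors (4.33 to 7.70%), and in 0 of 3949 D1 nuclei, which allows up to 0.0760%. Egfr had a UMI in 63.7% of Pthlh nuclei (57.2 to 69.8%), 24.9% of astrocyte-like nuclei (22.9 to 27.0%), 6.91% of other GABAergic nuclei, 0.760% of D1 and 0.427% of D2 nuclei. All shares rise with depth: at their own depth, with median UMIs of 7868 in D1 and 1739 in oligodendrocyte-like nuclei, the Nrg1 and Erbb4 share of D1 nuclei was 62.5%.

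The D1 nuclei were then split by Reln and Htr4, which mark different groups of these cells. Of 3950 D1 nuclei, 969 were Reln D1, 816 Htr4 D1, 319 had both genes, 1348 neither, and 498 had a single UMI of 1 gene. Because the cut is a number of UMIs, nuclei with few UMIs fall more often in the group with neither gene. Erbb4 was 841, 650, 628 and 791 CPM in Reln D1 nuclei and 578, 1346, 1195 and 1424 CPM in Htr4 D1 nuclei. It was higher in Htr4 D1 nuclei in 3 of 4 libraries, and lower in the saline female library, which held 95 of the 816 Htr4 D1 nuclei. Nuclei with both genes had 938, 746, 461 and 562 CPM and those with neither 434, 602, 499 and 489 CPM, so Htr4 without Reln marked the nuclei with the most Erbb4 in all but that library.

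Nrg1 went the other way. It was 7381 ± 348 CPM in Reln D1 nuclei and 6980 ± 497 in nuclei with both genes, against 5837 ± 98.4 in Htr4 D1 nuclei and 5715 ± 186 in those with neither (SD, n = 4). The nuclei with Reln lay above those without it in every library, whatever their Htr4. Nrg3 was lowest in nuclei with neither gene (2109, 2011, 2219 and 1958 CPM), with means of 2597 CPM in Reln D1, 2769 CPM with both genes and 3000 CPM in Htr4 D1 nuclei. Nrg2 had means from 286 to 324 CPM in the 4 groups.

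Tested with the library as a block, 11.6% of all genes differed between Reln D1 and Htr4 D1 nuclei, 5.81% higher and 5.75% lower in Reln D1. Of the 6 genes, Nrg2 passed with a difference of 0.24 on the log2 scale (SE 0.080, edgeR adjusted p = 0.0404), and it was lost whichever library was left out. Erbb4 differed by -0.59 (SE 0.24, edgeR adjusted p = 0.1064) and Nrg1 by 0.40 (SE 0.21, edgeR adjusted p = 0.245). Erbb4 passed without the saline female library, with -0.88 and edgeR adjusted p = 0.005448. Nrg3 (-0.15) and Egfr (-0.15, SE 0.39, from 61 and 62 UMIs) did not pass, and Erbb3 had 0 UMIs in both groups.

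**Figure D3:**
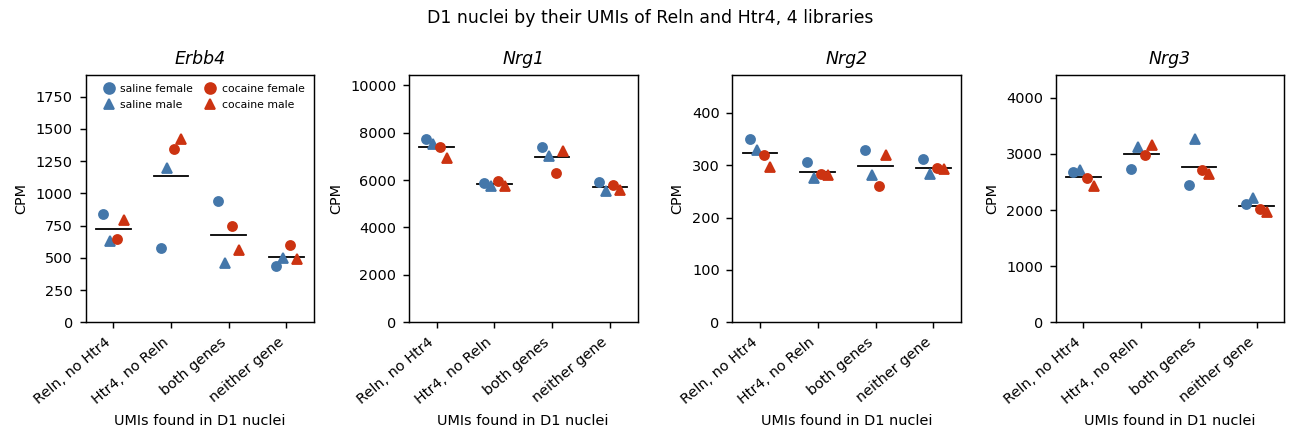
Level (CPM, linear axis from 0) of Erbb4, Nrg1, Nrg2 and Nrg3 in D1 nuclei grouped by their UMIs of Reln and Htr4, with 1 point per library (blue saline, red cocaine, circles female, triangles male) and a line at the mean. Erbb4 in Htr4 D1 nuclei spans 578 CPM in the saline female library to 1424 CPM in the cocaine male library, while Nrg1 is split by Reln.

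Cocaine was compared with saline within each class, in edgeR's quasi-likelihood test with sex as a covariate. In 14 classes the 6 genes passed the filter on low counts in 63 tests, and 2 of them were called. Over all genes and classes 0.428% of tests were called, and 12 of the 63 tests had an unadjusted p below 0.05, against 9199 of 125152 over all genes. Both calls concern Erbb4. For Nrg1 (13 classes), Nrg2 (12), Nrg3 (14), Erbb3 (2) and Egfr (8) no test passed, and the lowest edgeR adjusted p was 0.3188, for Nrg1. With DESeq2, or without the sex covariate, 0 of the 63 tests were called.

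Erbb4 rose in Htr4 D1 nuclei after cocaine by 0.70 on the log2 scale (SE 0.087, edgeR adjusted p = 1.699e-12), in a class where 0.543% of all genes were called and 0.305% were higher. The level was 578 CPM in the saline female and 1346 in the cocaine female library (616 and 3157 UMIs), a log2 ratio of 1.22. In males it was 1195 CPM with saline and 1424 CPM with cocaine (2688 and 2264 UMIs), a log2 ratio of 0.25. Both cocaine libraries lay above both saline libraries, but the saline female library stood apart from the other 3. It had the fewest Htr4 D1 nuclei (95 against 191 to 278) and the deepest ones (median 10727 UMIs against 7458 to 8685), and 69 of its 616 Erbb4 UMIs came from 1 nucleus. Without that library the difference was 0.21 with an edgeR adjusted p of 0.8919. The call was also lost without the cocaine female library (0.67, edgeR adjusted p = 0.37), without the cocaine male library (0.59, edgeR adjusted p = 0.06073) and with a stricter marker gate (0.73, edgeR adjusted p = 0.2166), and without the saline male library the difference was 1.25.

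The make-up of the class moved with this result. In clusters made without the 6 genes, the main Htr4 cluster held 65.3% of the Htr4 D1 nuclei of the saline female library and 84.2 to 85.3% in the others. Within that cluster alone Erbb4 was 404, 1401, 1157 and 1359 CPM, so the saline female library was low there too. In the cluster of Reln D1 nuclei, which held 29.5, 9.92, 5.40 and 6.28% of the class, it was 794, 763, 879 and 676 CPM. A cluster named for Grm8 nuclei held 0, 2, 7 and 9 Htr4 D1 nuclei with 0, 51, 257 and 288 of their Erbb4 UMIs. Markers of Grm8 nuclei, the spiny class highest in Erbb4, summed to 505 and 560 CPM with saline and 693 and 580 CPM with cocaine (8 of 8 listed, 0 at 0 UMIs). In Htr4 D1 nuclei the genes Grm8 (mean 263 CPM), Col11a1 (153 CPM) and Otof (100 CPM) carried most of it. Chst9 had 0.452 CPM there and 784 CPM in Grm8 nuclei, and Casz1 3.0 and 169 CPM. This sum therefore does not measure RNA of Grm8 nuclei. Markers of Pthlh nuclei summed to 763 and 656 against 816 and 723 CPM (6 of 7 listed). Kcnip2 carried most of that sum, with a mean of 609 CPM in Htr4 D1 nuclei, while Pthlh had 0.235 and Kit 1.5 CPM. Kcnip2 was at 647 CPM in D1 nuclei as a whole, 676 in D2 and 101 in Pthlh nuclei, so the sum does not measure Pthlh RNA. Their part in the result was not tested.

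In the Reln D1 nuclei Erbb4 went from 841 to 650 CPM in females and from 628 to 791 CPM in males, log2 ratios of -0.37 and 0.33. The estimate was -0.03 (SE 0.090) and did not pass. The difference of the cocaine effect between Reln D1 and Htr4 D1 nuclei was tested itself, where 0.0537% of all genes were called. It was -0.73 for Erbb4 (SE 0.21, edgeR unadjusted p = 0.001529, adjusted p = 0.356) and did not pass. With a library left out it passed in 3 of 4 fits, and without the saline female library it was -0.028. In D1 nuclei as a whole the 2 cocaine libraries lay above the 2 saline libraries (840 and 781 against 682 and 715 CPM), with an estimate of 0.19 (SE 0.071, edgeR adjusted p = 0.6232). In D2 nuclei, where the level was far lower, the values were 85.7 and 77.4 against 51.1 and 64.5 CPM (0.46, SE 0.12, edgeR adjusted p = 0.5594), also without overlap. That test passed with Leiden clusters, with no filter and without the saline male library.

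Erbb4 fell in astrocyte-like nuclei after cocaine, where 1.11% of all genes were called and 0.712% were lower. It went from 1142 to 663 CPM in females (1738 and 966 UMIs) and from 640 to 454 CPM in males (875 and 558 UMIs), log2 ratios of -0.79 and -0.50. The estimate was -0.68 (SE 0.11, edgeR adjusted p = 4.703e-06). The groups overlapped, since the cocaine female library lay above the saline male library. After thinning, 46.8, 32.6, 27.2 and 21.5% of nuclei had an Erbb4 UMI, in the same order as the levels. Without the saline female library the difference was -0.24 (edgeR adjusted p = 0.998), and without the cocaine male library -0.45 (0.9904).

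Summed by list, markers of the other classes with high Erbb4 moved in both directions in astrocyte-like nuclei. Single genes carried much of these sums. Mean levels were 497 CPM for Cspg5 (precursor list), 572 CPM for Tcf7l2 (committed precursors) and 75.5 CPM for Tshz1 (Grm8 list). Pdgfra, Cspg4, Enpp6, Bcas1, Grm8 and Chst9 had 0.354 to 3.32 CPM, so such sums cannot show how much RNA of those classes was present. The oligodendrocyte list summed to 148 and 127 CPM with saline and 159 and 172 CPM with cocaine (11 of 11 listed, 0 at 0 UMIs), and the precursor list to 471 and 461 against 543 and 705 CPM (8 of 9 listed). The list of committed precursors summed to 609 and 600 against 569 and 522 CPM, with Gpr17 at 0, and the Grm8 list to 122 and 131 against 115 and 93.6 CPM. Their part in the result was not tested. In the main astrocyte cluster, with 95.3 to 98.4% of the class, Erbb4 was 1187, 662, 656 and 463 CPM. The other genes did not pass in astrocyte-like nuclei: Egfr had 285 and 375 CPM with saline against 272 and 318 CPM with cocaine (-0.19, SE 0.11), and Nrg3 went from 962 to 648 CPM in females and from 777 to 1143 CPM in males.

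Further Erbb4 values did not pass. Other GABAergic nuclei had 3765 and 4003 CPM with cocaine against 1946 and 2683 CPM with saline (0.73, SE 0.22). There the cluster named for Pthlh nuclei held 11.3 and 18.8% of the class with saline and 26.9 and 24.6% with cocaine. Erbb4 within that cluster was 8982 and 11103 against 10494 and 10632 CPM, and with clusters as classes the difference was -0.13. It passed without the saline male library (0.95) and with no filter (0.71). Pthlh nuclei had 13245 and 15462 CPM with saline and 12519 and 12863 CPM with cocaine (-0.24, SE 0.11). In oligodendrocyte-like nuclei Erbb4 gave -0.08 (SE 0.072) and Erbb3 0.19 (SE 0.12).

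**Figure D4:**
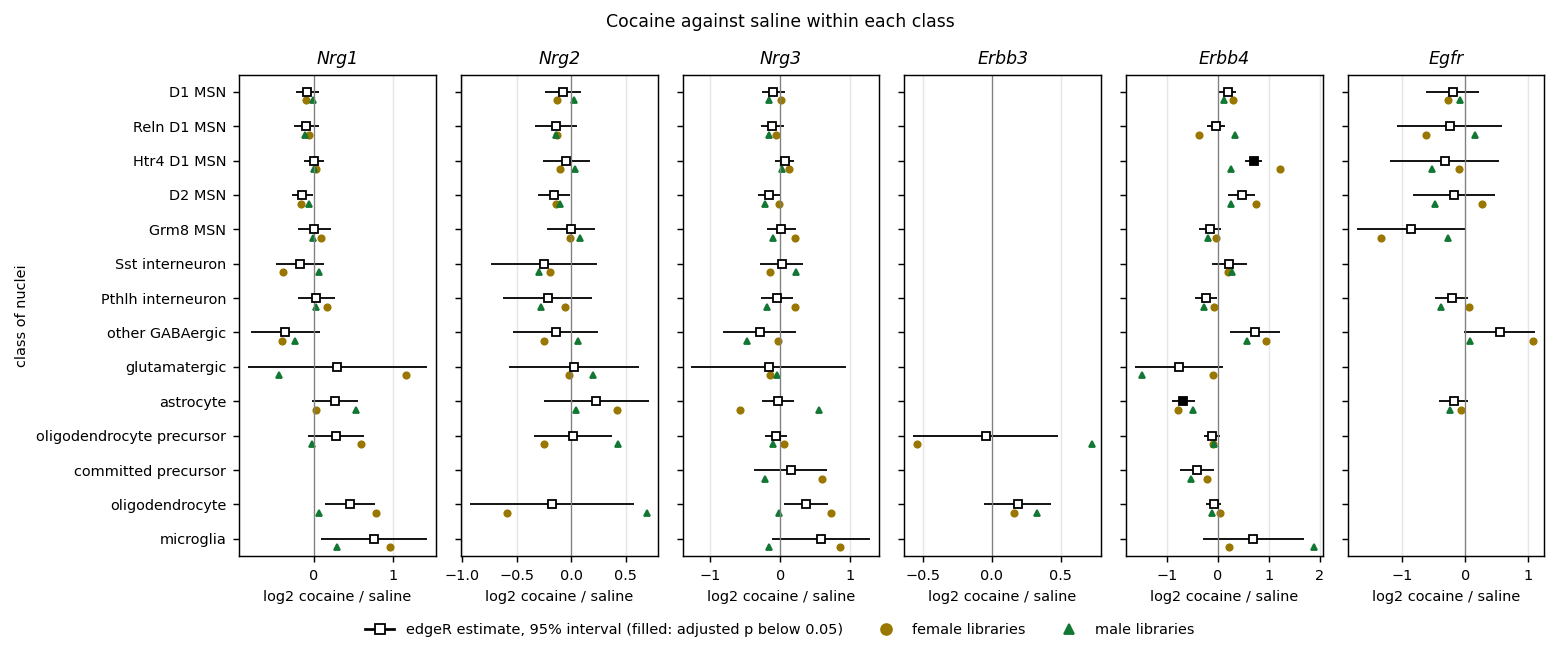
Cocaine against saline (log2, x axis) for each gene and class: squares are edgeR estimates with 95% intervals, filled where the adjusted p is below 0.05, and coloured points are the ratios within females (circles) and males (triangles). The filled squares are Erbb4 in Htr4 D1 nuclei (0.70) and in astrocyte-like nuclei (-0.68).

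**Figure D5:**
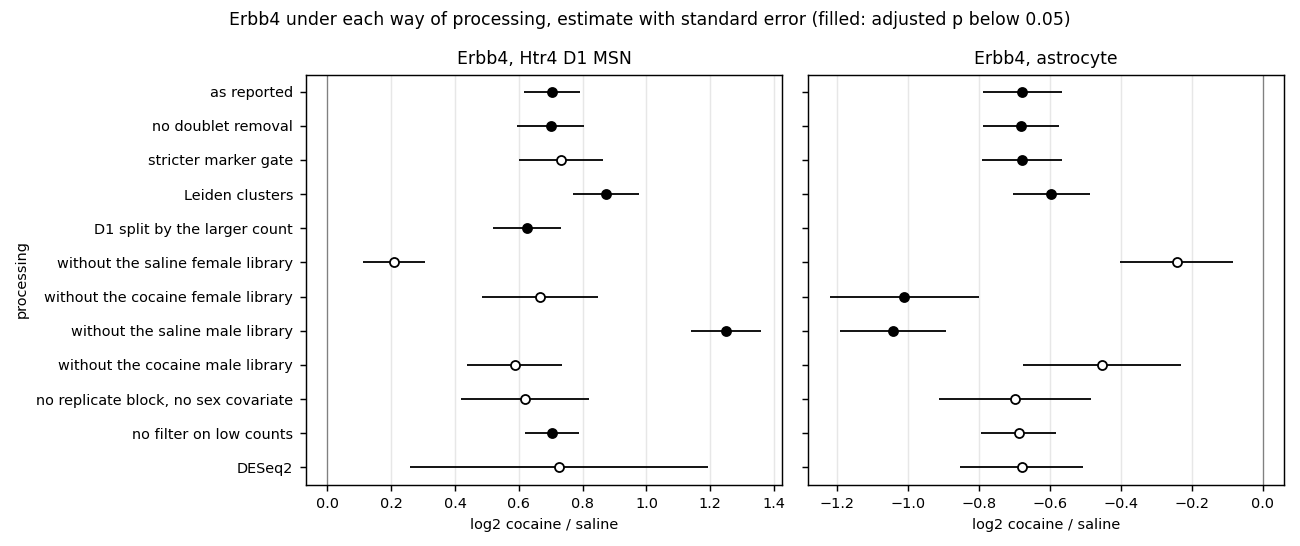
Estimate of the Erbb4 difference between cocaine and saline (log2, x axis, with standard error) under each way of processing (y axis), filled where the adjusted p is below 0.05. The sign is the same in every row of both panels, and both calls are lost without the saline female library, without the cocaine male library, without the sex covariate and in DESeq2.

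Of the neuregulins, those with an unadjusted p below 0.05 were Nrg1 and Nrg2 in D2 nuclei, Nrg1 and Nrg3 in oligodendrocyte-like nuclei and Nrg1 in microglia-like nuclei. In D2 nuclei Nrg1 was 6456 and 5740 CPM with saline against 5777 and 5493 CPM with cocaine (-0.15, SE 0.060), and Nrg2 376 and 338 against 342 and 316 CPM (-0.16, SE 0.066). Neither passed the adjustment, and each was lower with cocaine in both sexes. In oligodendrocyte-like nuclei Nrg1 was 81.8 CPM in the cocaine female library and 40.7 to 47.2 CPM in the others, and without that library the difference was -0.12. Nrg3 was 72.8 CPM in the same library and 43.9 to 48.3 CPM in the others. Both genes were there at 2.11% of their D1 level or less.

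The pathway list holds 78 further genes of neuregulin and ErbB signalling: other ligands, Erbb2, sheddases, negative regulators, adaptors and the PI3K and MAPK arms. Of these, 77 were among the listed symbols. Cocaine changed 1 of 805 tests over the 14 classes, with 43 at an unadjusted p below 0.05, where over all genes 0.428% were called and 9199 of 125152 had such a p. The 1 call was Shc3, a neuronal adaptor of receptor tyrosine kinases, in Reln D1 nuclei, where 1.65% of all genes were called and 1.23% were higher. Its level there was 138, 195, 157 and 188 CPM, with both cocaine libraries above both saline libraries (log2 difference 0.38, SE 0.11, edgeR adjusted p = 0.03874). The call was lost with no doublet removal, with no filter, without the sex covariate, in DESeq2 and with each library left out. In D1 nuclei as a whole it was 121 and 97.8 CPM with saline against 152 and 138 CPM with cocaine (0.39, SE 0.078, edgeR adjusted p = 0.3678). Over the list the median log2 difference lay between -0.04 and 0.07 in the 14 classes, and over all genes between -0.01 and 0.01.

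The genes whose levels over 15 classes were most like each member were ranked by Pearson's r of log2(CPM + 1) among 12656 genes. The 15 class means share libraries, and no test was made. For Nrg1 they were Slco4c1 (r = 0.98), Trim66 (0.98) and Pdlim7 (0.98). For Nrg2 they included Fgf14 (0.99) and Scn1a (0.97), a sodium channel gene. For Nrg3 they were Cacna1a (0.97), a calcium channel gene, Epha5 (0.96) and St6gal2 (0.96). Erbb3 was most like Ninj2 (0.98), Kcnk5 (0.96) and Fa2h (0.94), the last an enzyme gene of myelin lipid synthesis. Erbb4 had no close match, with Txndc16 (0.80), Abcb8 (0.79) and Ttc21b (0.78) as the nearest, and Egfr was nearest to Arfgef2 (0.87), Mcrip2 (0.86) and Sfxn4 (0.84).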

How the data were processed

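The deposited values are raw UMI counts, 1 matrix of genes by nuclei per library with no normalization. Cell Ranger 6.1.2 produced them, per the file headers, on the genome build rn7, per the submitters' processing notes. For the annotation and the counting settings nothing is given in the sources used here. Of the 30560 genes, 7162 carry an identifier in place of a symbol. Counting per gene can split reads between overlapping genes.

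The 6 genes, the marker and pathway lists and the classes were chosen with earlier results of these data known. A minimum of 200 genes and a maximum of 5% mitochondrial UMIs per nucleus removed 4 nuclei. The nuclei with the highest Scrublet doublet scores (scanpy 1.11.5) were removed at 0.8% per 1000 nuclei, 1381 in all (4.97 to 5.81% per library; the caller's own threshold gave 3.34 to 4.50%). Classes required a minimum of UMIs and of UMIs per 10000 of their marker genes, limits set after the data were seen, and nuclei passing for 2 or more classes (223) were left out. Of 129 markers 123 were listed (not Pvalb, Slc18a3, Meg3, Lhfpl3, Flt1 and Cldn5). The median over nuclei of another class's gate genes was above 0 for the Grm8 genes in Htr4 D1 nuclei (1.56 UMIs per 10000) and glutamatergic nuclei (6.33), spiny neuron genes in the interneuron-like, Grm8 and glutamatergic nuclei, D1 genes in cholinergic and vascular-like nuclei, neuron genes in oligodendrocyte precursor-like nuclei (6.76), and committed precursor genes along the oligodendrocyte lineage.

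The replicate is the library, so raw counts were added up over the nuclei of a class in each library. A class needed 25 nuclei in each library for a test, which excluded cholinergic and vascular-like nuclei. edgeR 4.0.16 (R 4.3.3; TMM, filterByExpr, quasi-likelihood) was used with Benjamini-Hochberg adjustment over all genes at 0.05. Cocaine against saline had sex as a covariate, which is the same as the replicate number in the labels, and leaves 1 residual degree of freedom. Prior degrees of freedom were estimated as infinite in 6 classes, among them Htr4 D1 nuclei, and 182 in astrocyte-like nuclei, so their very small p-values rest on the trend over all genes. Class contrasts had the library as a block in 2 fits, with D1 nuclei whole or split, not in 1 fit over all classes as first laid down, because the split nuclei are part of the D1 class. The named genes are the 6 members in every class, the pathway list as counts per group with those genes that passed, and for each member the 3 most alike genes, of which 1 for Nrg2 is not reported here. Ratios within a sex add 0.5 to each count. The fits were tested on simulated counts. Alternatives were each library left out, no sex covariate, DESeq2 1.42.0, no filter, no doublet removal, a stricter gate (own limits 1.5 times as high, those of other classes 0.75 times), Leiden clusters, the D1 split by the larger count, TMM-scaled levels and other depths of thinning. Intervals and limits at 0 cover counting error only.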

Additional observations from a re-analysis of the deposited data

Results flagged for a closer look

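Erbb4 moved in opposite directions with cocaine in classes of the same libraries, in both sexes. It was higher with cocaine in Htr4 D1 nuclei (log2 difference 0.70) in females and in males. In both sexes it was lower in Grm8 nuclei (-0.15), Pthlh nuclei (-0.24), glutamatergic nuclei (-0.76), oligodendrocyte precursor-like nuclei (-0.12), committed precursor-like nuclei (-0.41) and astrocyte-like nuclei (-0.68). Of these 7 classes, the Htr4 D1 and astrocyte-like nuclei passed the threshold. The glutamatergic difference was 0.14 with Leiden clusters, 0.18 without the saline female library and 0.32 without the cocaine male library. In females its log2 ratio was -0.10, where 46 of 145 saline and 117 of 589 cocaine Erbb4 UMIs came from 1 nucleus each. Gad1 and Gad2 together were at 135 CPM in the saline female glutamatergic nuclei and at 6.09 to 12.2 CPM in the others. The part of these nuclei and this RNA in the result was not tested.

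Set against the astrocyte-like nuclei, Erbb4 was higher with cocaine in both sexes in D1 nuclei (0.19), Htr4 D1 nuclei (0.70), D2 nuclei (0.46), Sst nuclei (0.22), other GABAergic nuclei (0.73) and microglia-like nuclei (0.70, from 42 UMIs). The Htr4 D1 nuclei are part of the D1 class. The microglia-like and Sst differences were -0.39 and -0.43 with Leiden clusters, and that of other GABAergic nuclei -0.13. None of these differences between classes was tested. The saline female library gave the highest astrocyte value and the lowest Htr4 D1 value of Erbb4, and without it the 2 differences were -0.24 and 0.21, with neither past the threshold.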

How the results depend on the processing

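Each library is a pool of 4 rats and stands alone for its sex and treatment, so a difference between pools cannot be told apart from an effect of treatment within a sex. With a library left out, the sex covariate was dropped and the lone library of an arm was assumed to vary like the other arm. Low counts limit Egfr in Sst (16 UMIs) and cholinergic nuclei (30 UMIs) and Erbb3 in committed precursor-like nuclei (15 UMIs). They also limit Erbb3 in vascular-like nuclei, where 0 UMIs allow up to 21.5 CPM. In D1 nuclei 0 Erbb3 UMIs allow up to 0.0905 CPM, and Egfr had 296 UMIs. The cause of each change below was not tested.

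Erbb4 in Htr4 D1 nuclei (0.70) lost its call with the stricter gate (0.73, edgeR adjusted p = 0.2166), with no replicate block, that is without sex (0.62, 0.9987), and in DESeq2 (0.73, 0.9999). It ranged from 0.21 to 1.25 with a library left out and kept its call only without the saline male library. It kept it with no doublet removal (0.70), Leiden clusters (0.87), the larger-count split (0.63) and no filter (0.70). Erbb4 in astrocyte-like nuclei (-0.68) lost its call with no replicate block (-0.70, 0.5818), with no filter (-0.69, 0.6964) and in DESeq2 (-0.68, 0.505), and ranged from -1.04 to -0.24 with a library left out. Tests called among the 6 genes numbered 1 with the stricter gate (56 tests), 7 with Leiden clusters, 3 with no filter, 0 with no replicate block, 0 in DESeq2 and 0 to 7 with a library left out. Calls in the pathway list numbered 0 with no doublet removal, no replicate block and DESeq2, 4 with Leiden clusters, 2 with no filter and 0 to 2 with a library left out. The difference of the Erbb4 effect between Reln D1 and Htr4 D1 nuclei passed with no filter (-0.73, edgeR adjusted p = 2.255e-06) and ranged from -1.48 to -0.028 with a library left out, called in 3 of 4. Over all genes the number called in D1 nuclei was 1, and 0 to 212 under the alternatives. It was 2 and 1 to 147 in D2, 57 and 0 to 156 in Htr4 D1, 174 and 0 to 188 in Reln D1 and 115 and 1 to 122 in astrocyte-like nuclei.

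Between classes, Egfr in D1 against D2 was 0.89 in DESeq2 and 0.72 to 0.98 with a library left out. Nrg3 was 0.56 with Leiden clusters and 0.50 to 0.62. Nrg3 in Pthlh nuclei was 0.24 with no doublet removal, 0.30 with the stricter gate, 0.25 with no filter and 0.27 to 0.30 with a library left out. Erbb4 in glutamatergic nuclei was -0.51 in DESeq2 and -0.85 to -0.18. Nrg2 in Reln against Htr4 D1 nuclei was 0.21 with Leiden clusters, 0.24 with no filter and 0.22 to 0.27. Of the 63 cocaine tests 8 to 16 turned sign with a library left out and 10 with Leiden clusters. The turned values named here were not called. Erbb4 in glutamatergic nuclei was 0.14 with Leiden clusters and -2.17 to 0.32 with a library left out (above 0 when saline female nuclei or cocaine male nuclei were dropped). With Leiden clusters it was -0.43 in Sst and -0.39 in microglia-like nuclei. In astrocyte-like nuclei Nrg3 was 0.0092 with no replicate block and -0.45 to 0.36 with a library left out, and Egfr -0.40 to 0.033. Erbb3 in oligodendrocyte-like nuclei was -0.015 to 0.39 with a library left out. Erbb4 in Reln D1 nuclei was 0.011 with no doublet removal and -0.23 to 0.19 with a library left out (above 0 without either female library), and Erbb4 in other GABAergic nuclei -0.13 with Leiden clusters. With a library left out, Nrg1 and Nrg3 in oligodendrocyte-like nuclei ranged from -0.12 to 0.84 and from -0.012 to 0.62, and Nrg1 in microglia-like nuclei from -0.091 to 1.12, each lowest without the cocaine female library. Egfr in Sst nuclei against spiny neurons was -0.84 with Leiden clusters and -0.46 to 1.51 with a library left out, and Nrg3 there -0.0005 to 0.20, each lowest without the cocaine male library. Egfr in Reln against Htr4 D1 nuclei was 0.14 with the stricter gate, 0.082 with Leiden clusters and -0.3 to 0.055 with a library left out. Tests that missed the threshold as reported passed in 1 or more alternatives for Erbb4 with cocaine in D2, Pthlh, other GABAergic, glutamatergic and committed precursor-like nuclei, Nrg1 in D2 and oligodendrocyte-like nuclei, Nrg3 in oligodendrocyte-like nuclei, Nrg2 between D1 and D2, Erbb4 between oligodendrocytes and precursors, and Erbb4 and Nrg1 between Reln and Htr4 D1 nuclei, among the results followed here.

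Leiden clusters gave 6523 CPM of Nrg1 in Reln D1 nuclei, 11776 CPM of Erbb4 and 852 CPM of Egfr in Pthlh nuclei. TMM scaling gave 8560 CPM of Nrg1 in Reln D1, 395 CPM of Nrg2 in D2 and 7260 CPM of Nrg3 in glutamatergic nuclei.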

Other observations

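The pathway list was also set between classes, and nothing particular to the list is read from these counts. Between oligodendrocyte-like and precursor-like nuclei 25 of 71 tested genes were higher and 20 lower, where 56.8% of all genes were called. Among the sheddases and processing genes, which release neuregulins from the membrane, 7 of 8 were higher in oligodendrocytes and 0 lower. Psen2, a subunit of gamma-secretase, was at 113 against 7.22 CPM (log2 4.01, SE 0.24), Bace1 at 43.4 against 10.5 CPM (2.17, SE 0.25) and Adam10 at 211 against 86.8 CPM, higher in 4 of 4 libraries each. The adaptors went in both directions, with Erbin, a scaffold that binds ErbB2, at 825 against 151 CPM and Shc3 at 1.54 against 257 CPM.

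In astrocyte-like nuclei, set against spiny neurons, 38 of 71 genes were higher and 23 lower, where 72.1% of all genes were called. Gab1, an adaptor used by the EGF receptor, was at 272 against 1.66 CPM and Lrig1, which lowers ErbB receptor levels, at 299 against 15.8 CPM, each higher in 4 of 4 libraries. Against spiny neurons 16 genes were higher and 19 lower in Pthlh nuclei, 11 and 17 in Sst nuclei, and 17 and 23 in glutamatergic nuclei, where 41.3, 34 and 43.7% of all genes were called. Adam19, a protease that can cut neuregulin, was higher in all 3, at 91.2, 40.4 and 49.4 CPM against 9.76 CPM in spiny neurons. Between D1 and D2 nuclei 2 of 71 passed, where 7.71% of all genes did, Adam19 (12.0 against 7.57 CPM) and Cblb, a ubiquitin ligase gene (53.0 against 42.1 CPM). Reln D1 nuclei were higher than Htr4 D1 nuclei in 8 and lower in 6 of 71, where 11.6% of all genes were called, with Shc3 at 169 against 72.0 CPM and Cblb at 44.5 against 78.2 CPM.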
